A study of Homo sapiens with 4 samples.

Results

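The MHC class I antigen presentation pathway was followed through 9 genes, matched by symbol in the deposited table of 28278 genes. The genes were HLA-B, HLA-C, HLA-E and HLA-F, which encode heavy chains, B2M, which encodes their light chain, the peptide transporter genes TAP1 and TAP2, and the immunoproteasome subunit genes PSMB8 and PSMB9. All 9 were found, and all 9 were among the 16900 genes that passed the filter on low counts. The RNA came from libraries labelled HepG2, a human liver cancer line, in which short hairpin RNAs (shRNAs) were delivered by lentivirus. The groups were Control (a Control shRNA, 1 library), ATF7IP knockdown (2 libraries, 1 for each of 2 hairpins, called hairpins 1 and 2 here) and SETDB1 knockdown (1 hairpin, 1 library). Every group, Control included, had received 10 µM sorafenib, a multikinase inhibitor, for 48 h, so each difference below is between cells that carry a lentiviral hairpin and were exposed to the drug. Control and SETDB1 knockdown each rest on 1 hairpin and 1 library. No hairpin has a repeat library, so the spread between cultures of the same hairpin was not measured.

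Class I molecules carry short peptides from inside the cell to its surface, where CD8 T cells read them. The proteasome cuts proteins into peptides, TAP1 and TAP2 pump the peptides into the endoplasmic reticulum, and a loading complex fits them into a heavy chain paired with beta-2 microglobulin. Interferon raises most of these genes together, and in the immunoproteasome PSMB8, PSMB9 and PSMB10 take the places of the catalytic subunits PSMB5, PSMB6 and PSMB7. SETDB1 trimethylates histone H3 at lysine 9 and silences repeats and gene clusters, and ATF7IP is its cofactor in the nucleus.

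Class I promoters share short elements upstream of the start: an enhancer A site bound by NF-kappa-B, an interferon-stimulated response element, and the X and Y boxes used by the NLRC5 and RFX complex. The 250 bases upstream of the start are shown for the 4 genes that stood highest above Control in ATF7IP hairpin 1, and for TAP1, whose start lies 488 bases from that of PSMB9 on the opposite strand. Sequences are from RefSeq (GRCh38.p14), 5′ to 3′ on the gene's own strand, and are reference sequences, not reads of these cells. Of the 9 genes, 8 matched the promoter table, and HLA-E did not. Capitals mark a match on either strand to the response element core (GAAA on either side of any 2 bases), to its relaxed form (GAA, then any 2 bases and GAAA), to TGACG (the X2-like site), to the Y box, whose letters are ATTGG, or to enhancer A, which is GGGGA followed by any base and TCCC.
HLA-B (chr6:31357180-31357429, minus strand): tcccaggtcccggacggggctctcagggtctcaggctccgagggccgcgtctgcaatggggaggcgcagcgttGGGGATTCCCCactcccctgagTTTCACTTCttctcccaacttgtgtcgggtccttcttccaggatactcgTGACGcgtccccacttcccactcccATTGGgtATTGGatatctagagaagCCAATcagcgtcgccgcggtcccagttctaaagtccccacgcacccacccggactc
HLA-C (chr6:31272093-31272342, minus strand): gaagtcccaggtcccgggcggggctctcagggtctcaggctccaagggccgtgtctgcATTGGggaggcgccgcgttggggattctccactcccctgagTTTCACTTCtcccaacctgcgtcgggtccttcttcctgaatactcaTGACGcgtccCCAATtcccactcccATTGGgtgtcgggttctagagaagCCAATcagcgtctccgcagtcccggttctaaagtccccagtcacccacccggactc
HLA-F (chr6:29723184-29723433, plus strand): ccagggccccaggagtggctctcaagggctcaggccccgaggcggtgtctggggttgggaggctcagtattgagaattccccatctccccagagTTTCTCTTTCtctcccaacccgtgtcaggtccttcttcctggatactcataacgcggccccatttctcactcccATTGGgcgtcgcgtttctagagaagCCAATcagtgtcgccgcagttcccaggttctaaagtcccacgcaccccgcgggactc
B2M (chr15:44711267-44711516, plus strand): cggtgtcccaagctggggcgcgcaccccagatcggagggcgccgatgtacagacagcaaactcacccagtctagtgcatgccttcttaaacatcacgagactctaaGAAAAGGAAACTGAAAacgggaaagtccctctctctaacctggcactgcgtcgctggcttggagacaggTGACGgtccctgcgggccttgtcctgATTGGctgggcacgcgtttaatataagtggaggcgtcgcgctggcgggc
TAP1 (chr6:32853705-32853954, minus strand): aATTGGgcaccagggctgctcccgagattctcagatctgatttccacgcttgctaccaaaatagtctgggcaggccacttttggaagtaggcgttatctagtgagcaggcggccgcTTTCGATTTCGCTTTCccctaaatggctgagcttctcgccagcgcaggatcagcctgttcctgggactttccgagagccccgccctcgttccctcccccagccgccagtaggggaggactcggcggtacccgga

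The HLA-B and HLA-C windows were identical at 89.0% of aligned positions, and HLA-F shared 80.4% with HLA-B and 78.7% with HLA-C. The 8 genes had 10 windows, since PSMB8 and TAP1 had 2 each. The response element core was present upstream of B2M, HLA-F, TAP1 and TAP2, that is 4 of the 8 genes. By window this was 4 of 10, against 3.02% of 35116 RefSeq promoter windows of the same length. In HLA-B and HLA-C a site at about the same place, ending 147 and 143 bases upstream, held the relaxed form on the opposite strand, TTTCACTTC as printed, which 6.56% of all windows contained. That relaxed form was searched after the windows had been read, and it was also present upstream of TAP2, where it overlaps the core. The enhancer A letters were found upstream of HLA-B, and in 0.367% of all windows. The X2-like site was upstream of 6 of the 8 genes (6 of the 10 windows) and in 21.2% of all windows. The Y box was also upstream of 6 genes (6 of the 10 windows) and in 32.01% of all windows. HLA-B and HLA-C both hold the X2-like site and Y boxes on both strands within 106 bases of the start. A match describes letters in the window and is no evidence of binding. A gamma-activated site (TTC, then any 3 bases and GAA) was present in other windows of PSMB8 and TAP1 (2 of the 10 windows) and in 6.57% of all windows. A GC box (GGGCGG) was upstream of 4 of the 8 genes (5 of the 10 windows) and in 42.6% of all windows.

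Except for B2M, on chromosome 15 (chr15:44711517-44718145), the genes lie in the MHC region of chromosome 6 on the hg38 assembly (RefSeq annotation). HLA-F is at chr6:29723434-29738532, HLA-E at chr6:30489509-30494194, HLA-C at chr6:31268749-31272092 and HLA-B at chr6:31353875-31357179. TAP2 (chr6:32821831-32838739), PSMB8 (chr6:32840717-32844679), TAP1 (chr6:32845209-32853704) and PSMB9 (chr6:32854192-32859851) stand side by side in the class II part of the region, within 38021 bases. The annotation overlaps HLA-F with HLA-F-AS1 and RPL23AP1, TAP1 and PSMB8 with PSMB8-AS1, and HLA-B and B2M with a microRNA gene each.

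Library totals lay between 70236882 and 73791097 counts. Steps in the low values led to an assumption of 4 counts for each fragment, which no source states. Values are CPM (counts scaled to a common library size) with trimmed mean of M values (TMM) factors. Wherever 4 values are listed, Control comes first, hairpins 1 and 2 follow, and the SETDB1 knockdown library is last. Liver markers went against the label: 9 of 10 hepatocyte markers were at or under 12 counts in all 4 libraries, ALB, APOB, AFP and TTR were at 0 counts in all 4, and the 10 summed to between 0.340 and 0.520 CPM. The libraries are therefore called by their label only. The leukocyte marker PTPRC was at 16, 0, 4 and 7 counts. Of the T or NK cell markers 4 of 5 were at or under 12 counts in every library, and the other, CD8A, had 133 to 167 counts. The 5 myeloid or dendritic markers summed to 22.6, 25.5, 27.9 and 43.0 CPM, mostly from CD68 (1522, 1704, 1987 and 2987 counts), highest in SETDB1 knockdown, where 6 of the 9 class I pathway genes were lowest. Their part in the result was not tested. The 6 fibroblast markers summed to 151, 73.9, 72.6 and 144 CPM, an order that differs from that of the class I genes. Ribosomal protein genes took 4.58%, 5.76%, 4.06% and 4.40% of counts, highest in ATF7IP hairpin 1 as were most class I genes. Ribosomal RNA genes took 0.325%, 0.489%, 0.408% and 0.721% of counts, highest in SETDB1 knockdown. The part of either share in the result was not tested. In bulk RNA, fewer cells expressing a gene and less RNA per cell cannot be told apart.

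Transcripts of the pathway spanned a wide range of levels, from HLA-F to B2M. Per kilobase of the principal GENCODE transcript, B2M stood highest at 472 CPM per kb in Control, followed by HLA-C at 191, HLA-B at 123 and HLA-E at 60.5. TAP2 was at 42.9, PSMB8 at 32.2, TAP1 at 30.4, PSMB9 at 5.44 and HLA-F at 1.10 CPM per kb. Within each library HLA-C stood above HLA-B and TAP2 above PSMB8, although their ranges over the 4 libraries overlapped. PSMB8 and TAP1 changed order between libraries (32.2 against 30.4 in Control and 27.5 against 31.8 CPM per kb in hairpin 2), so these neighbours did not differ beyond their spread. The ranges of B2M (444 to 743), HLA-E (49.2 to 69.4), PSMB9 (3.34 to 6.14) and HLA-F (0.956 to 2.77 CPM per kb) did not overlap those of their neighbours.

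**Figure D1:**
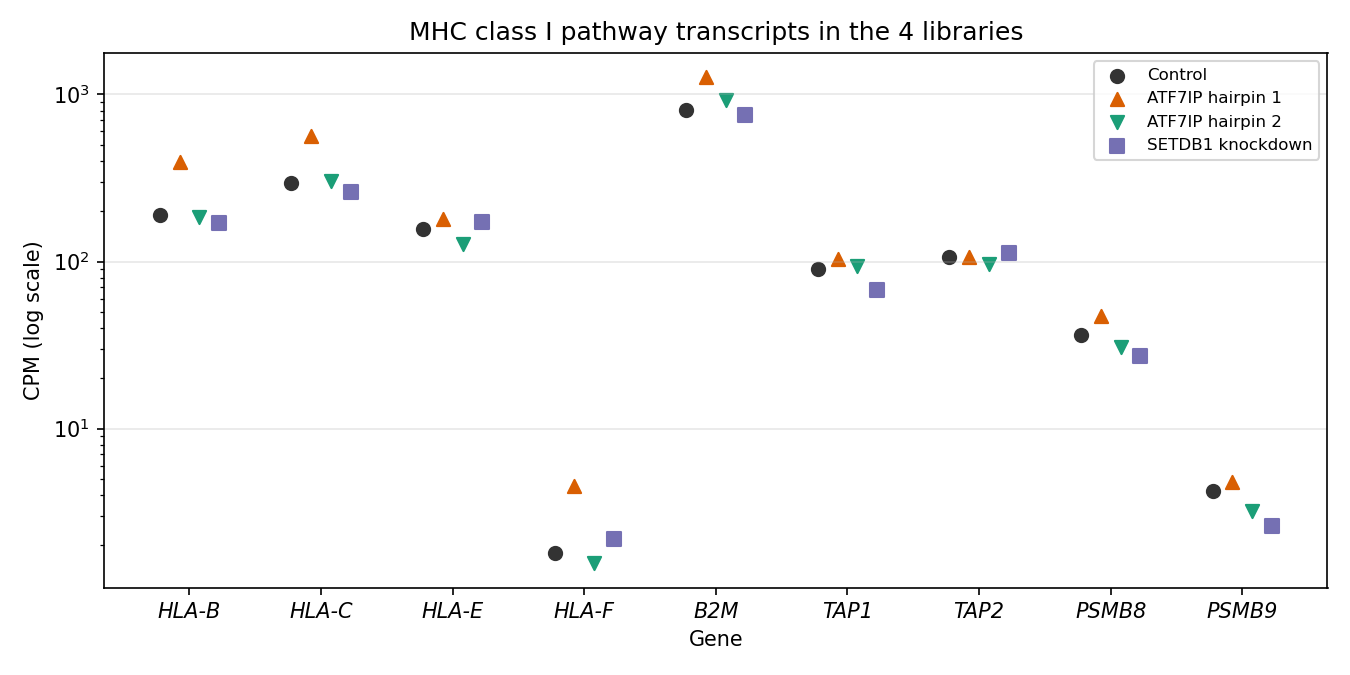
CPM (log axis) of the 9 class I pathway genes in each of the 4 libraries, 1 point per library, with no replicates except the 2 ATF7IP hairpins. ATF7IP hairpin 1 holds the highest point for 8 of the 9 genes and SETDB1 knockdown holds the lowest for 6.

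The question set by the design is whether lowering ATF7IP or SETDB1 goes with a different level of these transcripts. ATF7IP stood at 59.1, 18.3, 18.8 and 97.8 CPM, and SETDB1 at 47.7, 52.1, 46.8 and 11.99 CPM. Each hairpin's own target was lowest in its own libraries. The 2 ATF7IP hairpins left almost the same amount of ATF7IP, with a ratio of hairpin 1 to hairpin 2 of 0.971 (95% counting interval 0.833 to 1.13). Against Control, neither target passed the edgeR test (ATF7IP adjusted p = 0.0571, SETDB1 adjusted p = 0.117). Between the knockdowns both passed it (edgeR adjusted p = 0.00692 for ATF7IP and 0.0380 for SETDB1).

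HLA-B, a classical heavy chain, was at 191, 392, 184 and 170 CPM. Hairpin 1 stood apart, and the Control value lay between the 2 ATF7IP hairpins. HLA-C, the classical heavy chain that is also a ligand of killer cell receptors, was at 294, 562, 303 and 261 CPM. It had the same shape as HLA-B, with Control just below hairpin 2. Hairpin 1 held 2.05 times the HLA-B of Control (95% counting interval 1.97 to 2.14) and 1.91 times the HLA-C (1.85 to 1.98). Hairpin 2 held 0.965 times (0.920 to 1.01) and 1.03 times (0.994 to 1.07) the Control level. These intervals cover counting error under the assumed 4 counts per fragment, and not differences between cultures.

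HLA-E, the non-classical heavy chain that presents leader peptides to NKG2A, was at 157, 181, 128 and 173 CPM. Its 4 values lay closer together than those of HLA-B or HLA-C. Hairpin 1 was at 1.15 times Control (95% counting interval 1.09 to 1.21) and hairpin 2, the lowest, at 0.813 times (0.770 to 0.859). HLA-F, a non-classical heavy chain of low abundance here, was at 1.80, 4.54, 1.56 and 2.18 CPM, from 125, 320, 120 and 155 counts. Hairpin 1 again stood apart, at 2.54 times Control with a wide counting interval of 1.66 to 3.98. An antisense gene, HLA-F-AS1, overlaps HLA-F and had 152, 147, 196 and 284 counts, without the high value in hairpin 1. Whether counting used strand is not given in the sources used here, so reads of HLA-F and HLA-F-AS1 cannot be told apart with certainty.

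B2M, the light chain needed for heavy chains to reach the surface, was at 805, 1266, 921 and 758 CPM. Both ATF7IP hairpins lay above Control, hairpin 1 at 1.57 times (95% counting interval 1.54 to 1.61) and hairpin 2 at 1.14 times (1.12 to 1.17). Since heavy chain genes are polymorphic and alike, reads can be assigned to the wrong member, and their sum is less exposed to this. The sum of HLA-B, HLA-C, HLA-E and HLA-F was 644, 1140, 617 and 607 CPM, and that of all 10 measured class I heavy chain genes and pseudogenes was 1079, 1929, 1086 and 938 CPM. Both sums were highest in hairpin 1, and in hairpin 2 neither was far from Control. Per kilobase, B2M stood at 1.26, 1.07, 1.47 and 1.28 times the sum of the 4 heavy chains, lowest in hairpin 1, where heavy chains were further above Control than B2M was.

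TAP1, a subunit of the peptide pump, was at 90.0, 104, 94.2 and 67.7 CPM. The 3 other libraries lay close together and SETDB1 knockdown lay below them, at 0.752 times Control (95% counting interval 0.697 to 0.811). TAP2, its partner, was at 107, 107, 96.6 and 112 CPM. It varied least of the 9 genes, and was the only one with its highest value in SETDB1 knockdown. Per kilobase the TAP1 to TAP2 ratio was 0.709, 0.818, 0.823 and 0.509, so the SETDB1 knockdown library held the least TAP1 for its TAP2.

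PSMB8, the immunoproteasome subunit that replaces PSMB5, was at 36.2, 47.3, 30.9 and 27.2 CPM. Control lay between the hairpins, and SETDB1 knockdown was lowest at 0.752 times Control (95% counting interval 0.667 to 0.848). PSMB9, which replaces PSMB6 and shares its upstream region with TAP1, was at 4.26, 4.80, 3.20 and 2.61 CPM, from 296, 339, 246 and 186 counts. SETDB1 knockdown was again lowest, at 0.607 times Control (0.411 to 0.890). The antisense gene PSMB8-AS1 overlaps TAP1 and PSMB8 but had 46 to 91 counts, far fewer than either.

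Relative to the subunits they replace, the immunoproteasome transcripts were in the minority in every library. PSMB8 stood at 24.6%, 23.2%, 17.5% and 16.4% of PSMB5 per kilobase. PSMB9 stood at 2.33%, 1.98%, 1.84% and 1.43% of PSMB6, and PSMB10 at 5.29%, 5.35%, 4.60% and 4.65% of PSMB7. For PSMB8 and PSMB9 the ratio in hairpin 1 was slightly below Control although the CPM was above it. The partners PSMB5 (169, 235, 203 and 191 CPM) and PSMB6 (199, 265, 189 and 199 CPM) were also highest in hairpin 1. No test was made of these ratios, which rest on 1 library each.

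**Figure D2:**
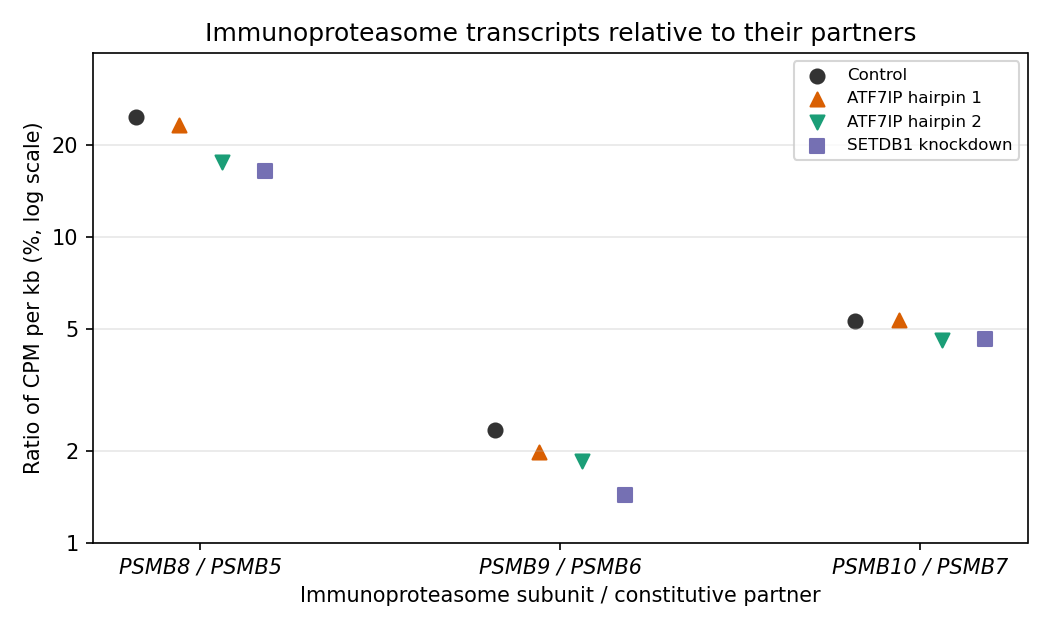
Level of each immunoproteasome subunit as a percentage of the constitutive subunit it replaces, from CPM per kb (log axis), 1 point per library. PSMB8 lies between 16.4% and 24.6% of PSMB5 and PSMB9 between 1.43% and 2.33% of PSMB6, with SETDB1 knockdown lowest for both.

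Of the 9 genes, 8 had their highest value in ATF7IP hairpin 1, and 6 (HLA-B, HLA-C, B2M, TAP1, PSMB8 and PSMB9) had their lowest in SETDB1 knockdown. On the log2 CPM scale (prior count 2) the median of the 9 differences from Control was 0.39 in hairpin 1, with 8 of 9 above 0, −0.15 in hairpin 2, with 3 of 9 above 0, and −0.17 in SETDB1 knockdown, with 3 of 9 above 0. The medians over all 13132 genes with a mean of at least 1 CPM were within 0.01 of 0 in each. With the upper quartile as scale TAP2 also lay above 0 in hairpin 1, and with library totals HLA-B lay above 0 in hairpin 2 (0.02 in place of −0.05). The 3 differences share the Control library. At least 2-fold from Control in either direction were HLA-B and HLA-F in hairpin 1, where 4.90% of all genes were as far apart. In hairpin 2 the count was 0 of 9 against 5.81% of all genes, and in the SETDB1 knockdown library 0 of 9 against 3.17%.

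**Figure D3:**
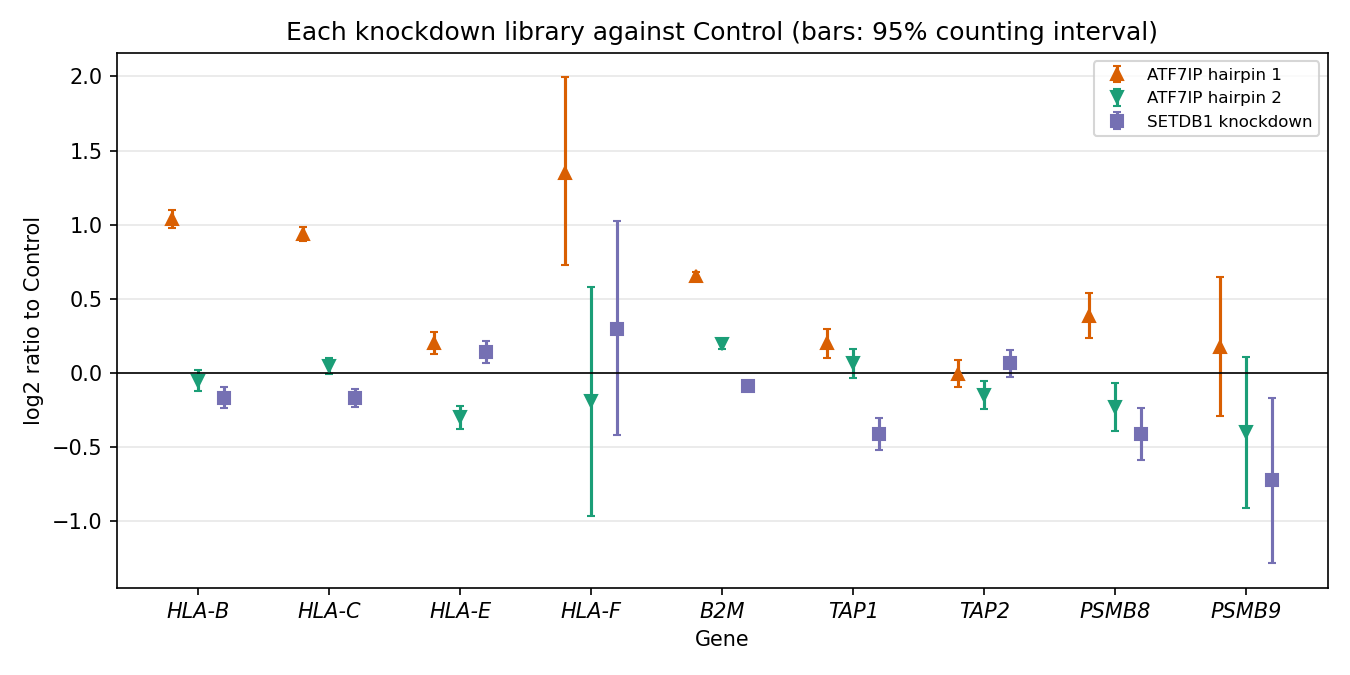
Log2 ratio of CPM in each knockdown library to Control for the 9 genes, with bars for the 95% counting interval, which assumes 4 counts per fragment and holds no spread between cultures. HLA-B, HLA-C, HLA-F and B2M lie well above 0 in ATF7IP hairpin 1 and near 0 in hairpin 2, and TAP1, PSMB8 and PSMB9 lie below 0 in SETDB1 knockdown.

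The 2 ATF7IP hairpins differed from each other in the same direction for every one of the 9 genes, all lower in hairpin 2. The log2 difference, hairpin 2 minus hairpin 1, was −1.52 for HLA-F, −1.09 for HLA-B, −0.89 for HLA-C, −0.61 for PSMB8 and −0.58 for PSMB9. It was −0.50 for HLA-E, −0.46 for B2M, −0.15 for TAP2 and −0.14 for TAP1. The median was −0.58, against −0.02 over all 13132 genes, of which 48.0% were above 0. All 9 stayed below 0 with library totals, DESeq2 size factors or upper quartiles as the scale. HLA-B and HLA-F were at least 2-fold apart, as were 2.59% of all genes. With 1 library per hairpin this difference has no test, and hairpin, culture and library cannot be told apart.

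Other gene lists leaned the same way to different degrees. All 11 other subunits of the 20S proteasome core were lower in hairpin 2 than in hairpin 1, with a median of −0.13, as were 17 of 19 MHC region neighbours, with a median of −0.25. PSMB5, PSMB6, PSMB7, PSMB10, the activator genes PSME1 to PSME4 and the assembly chaperone POMP formed a list of 9, of which 7 were lower, with a median of −0.34. Peptide loading genes (median −0.01, 5 of 9 lower) and interferon receptor genes (median 0.03, 3 of 8 lower) lay near the median of all genes.

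**Figure D4:**
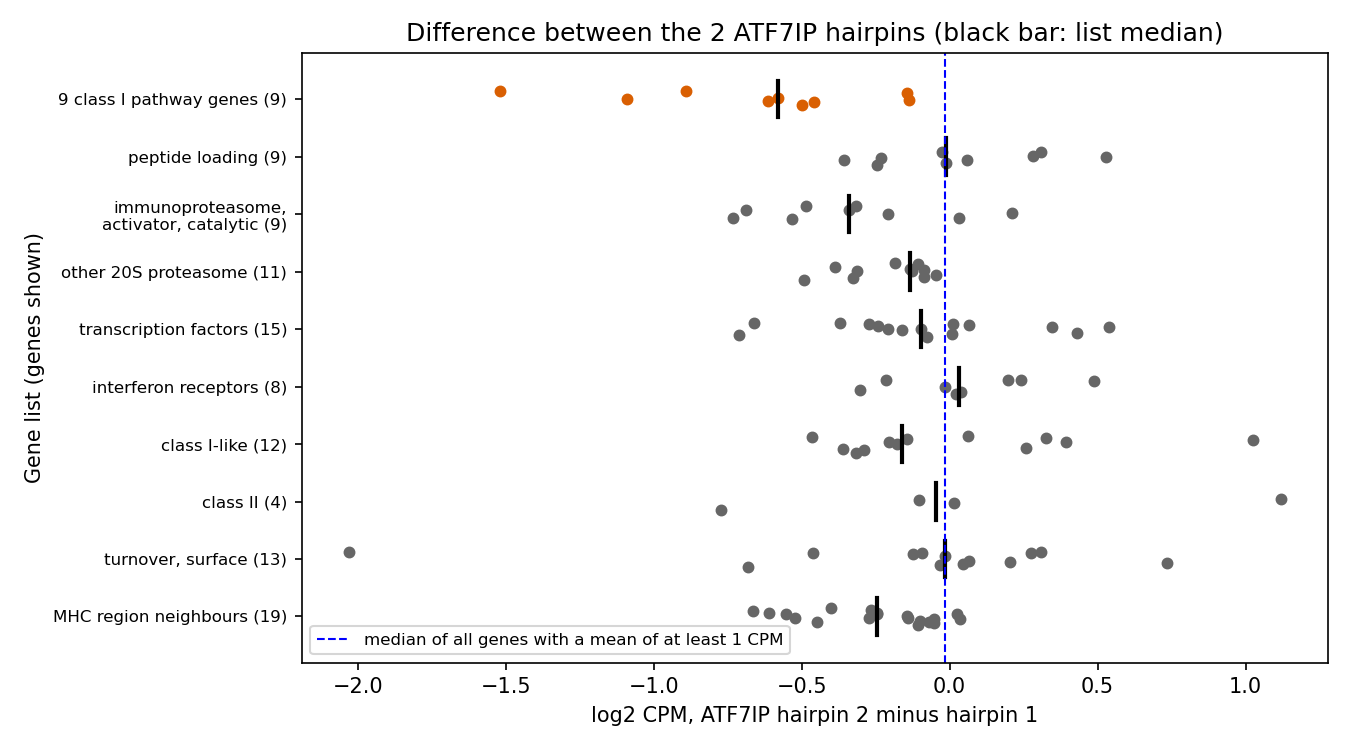
Log2 CPM difference, ATF7IP hairpin 2 minus hairpin 1, for the 9 class I pathway genes and for 9 related lists without them, limited to genes with a mean of at least 1 CPM, with a bar at each list's median and a dashed line at the median of all genes. All 9 class I pathway genes lie below 0, with a median of −0.58.

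In edgeR's quasi-likelihood test of ATF7IP knockdown against Control, 0 of the 9 genes were called at an adjusted p under 0.05, where 0.0769% of all genes were called (13 of 16900). HLA-B averaged 288 ± 147 CPM (SD, n = 2) in ATF7IP knockdown, and its log2 fold change was 0.59 ± 0.43 (SE of the fit, edgeR adjusted p = 0.788, 95% interval −0.39 to 1.58). HLA-C had 0.56 ± 0.37 (edgeR adjusted p = 0.767), HLA-F 0.76 ± 0.61 (edgeR adjusted p = 0.816) and B2M 0.44 ± 0.32 (edgeR adjusted p = 0.789). The other 5 lay between −0.09 (PSMB9) and 0.14 (TAP1). The median of the 9 was 0.14 and that of all genes 0.02. These averages join unlike libraries: without hairpin 1 the HLA-B difference was −0.05, and without hairpin 2 it was 1.04. At an unadjusted p under 0.05 the count was also 0 of 9, with edgeR, DESeq2 and limma. The shares of all genes were 8.94% with edgeR, 6.82% with DESeq2 and 7.61% with limma.

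Against Control, SETDB1 knockdown had 0 of the 9 genes called by edgeR, where 0.0710% of all genes were (12 of 16900). PSMB9 had a log2 fold change of −0.70 ± 0.47 (SE of the fit, edgeR adjusted p = 1, 95% interval −1.76 to 0.36). TAP1 had −0.41 ± 0.28 and PSMB8 −0.41 ± 0.36, HLA-B and HLA-C both −0.17, and B2M −0.09. HLA-F (0.28), HLA-E (0.14) and TAP2 (0.07) were on the other side of 0. The median was −0.17 against −0.00 for all genes, and 0 of 9 had an unadjusted p under 0.05 with edgeR, DESeq2 and limma. Of all genes 4.71% did with edgeR, 3.09% with DESeq2 and 4.11% with limma.

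Between the knockdowns, SETDB1 against ATF7IP, edgeR called 0 of the 9 genes and 0.166% of all genes (28 of 16900). TAP1 came closest, with a log2 fold change of −0.55 ± 0.25 (SE of the fit, edgeR adjusted p = 0.516, unadjusted p = 0.0553, 95% interval −1.11 to 0.02). HLA-B had −0.76 ± 0.43 (edgeR adjusted p = 0.631) and HLA-C −0.73 ± 0.38 (edgeR adjusted p = 0.580). PSMB9 had −0.61 ± 0.41, B2M −0.53 ± 0.32, PSMB8 −0.52 ± 0.32 and HLA-F −0.48 ± 0.60. HLA-E (0.17) and TAP2 (0.14) were the other two. In 6 of the 9 genes the SETDB1 knockdown value lay below both ATF7IP hairpins, in HLA-E and HLA-F it lay between them, and in TAP2 above both. At an unadjusted p under 0.05 edgeR had 0 of the 9 genes, against 9.88% of all genes. DESeq2 had 2 of the 9, against 7.31% of all genes, and limma had 0, against 8.31%. With upper-quartile factors edgeR had 1 of the 9, TAP1, against 9.96% of all genes. For HLA-B the difference was −1.20 without hairpin 2 and −0.11 without hairpin 1, and for HLA-F it was −1.05 and 0.47. The TAP1 difference moved less, between −0.61 and −0.48.

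**Figure D5:**
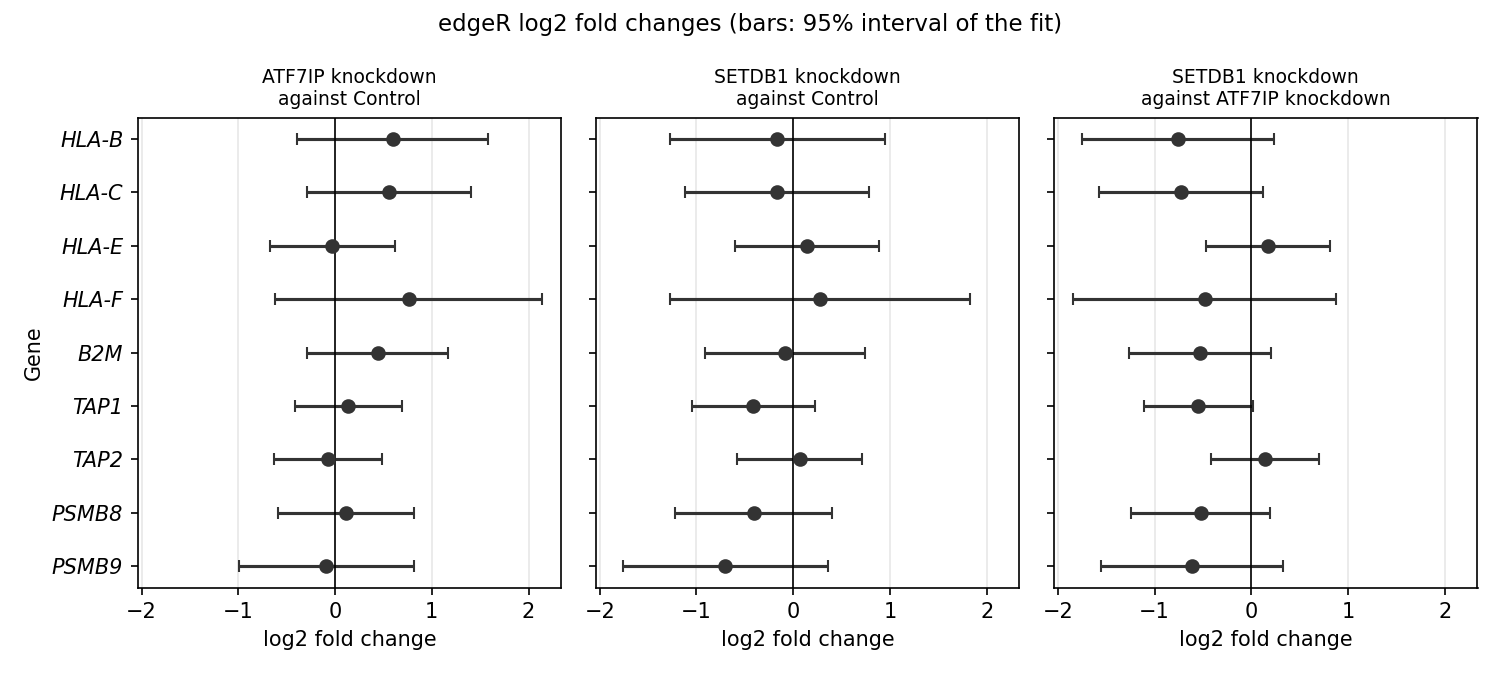
EdgeR log2 fold changes of the 9 genes in the 3 comparisons, with bars for the 95% interval of the fit, which rests on 1 residual degree of freedom moderated across genes. Every interval includes 0, and that of TAP1 in SETDB1 against ATF7IP knockdown reaches only 0.02 above it.

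Around the 9 genes, 9 lists of pathway and neighbouring genes were read in the same fit, with 110 genes tested besides the 9. EdgeR called 0 of the 110 in each of the 3 comparisons, and limma also called 0. DESeq2 called 1 of the 110 in ATF7IP knockdown against Control, 0 in SETDB1 knockdown against Control, and 1, IRF9, in SETDB1 against ATF7IP knockdown. At an unadjusted p under 0.05 edgeR had 6 of the 110 for ATF7IP against Control (5.45%, against 8.94% of all genes). It had 7 for SETDB1 against Control (6.36%, against 4.71%) and 5 for SETDB1 against ATF7IP (4.55%, against 9.88%). In the loading complex and its chaperones (10 tested), TAPBP, the tapasin that bridges TAP to the heavy chain, was at 109, 123, 104 and 73.3 CPM. Like TAP1 it was lowest in SETDB1 knockdown (log2 fold change −0.58, edgeR adjusted p = 1). The chaperones CALR (786, 841, 825 and 905 CPM) and CANX (1834, 1480, 1801 and 1554 CPM) did not have the high value in hairpin 1. HSPA5, an endoplasmic reticulum chaperone raised by unfolded proteins, was at 1702, 1260, 1074 and 1971 CPM, lower in both ATF7IP hairpins than in Control.

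Among proteasome genes, PSMB10 was at 10.9, 18.3, 12.6 and 12.6 CPM and the activator subunit PSME2 at 112, 170, 106 and 107 CPM. Hairpin 1 was highest for both, and for PSMB10, unlike HLA-B, Control was lowest. PSMA7, an alpha ring subunit, was at 338, 522, 400 and 407 CPM, with Control lowest. Of the 11 other core subunits 10 lay above Control in hairpin 1, 8 in hairpin 2 and 8 in SETDB1 knockdown.

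The transcription factors that act on class I promoters (15 tested) had a median log2 fold change of −0.01 in ATF7IP knockdown and −0.16 in SETDB1 knockdown. IRF9, the DNA-binding subunit of the interferon-activated ISGF3 complex, was at 19.3, 29.6, 18.02 and 6.37 CPM. It was lowest in SETDB1 knockdown and highest in hairpin 1, with a log2 fold change in SETDB1 knockdown of −1.60 ± 0.40 (edgeR adjusted p = 0.631). STAT2, another subunit of that complex, was at 39.8, 29.8, 25.2 and 25.1 CPM, highest in Control. RFX5, part of the X box complex, was at 77.9, 81.5, 77.3 and 64.7 CPM, and RFXAP, another of its subunits, at 8.70, 11.4, 16.6 and 10.3 CPM. Of the interferon receptor and signalling genes (11 tested) JAK1 was at 250, 155, 183 and 225 CPM, lowest in hairpin 1.

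Class I-like genes (16 tested) lay above Control in 13 of 16 in SETDB1 knockdown and in 5 of 16 in ATF7IP knockdown, by edgeR log2 fold change. Of all genes 49.5% and 52.0% did. The medians of the 16 were 0.25 and −0.12. HLA-J, HLA-V, CD1D and AZGP1, which are among the 16, had 23 counts or fewer in every library, so their direction is uncertain. MICA, a stress ligand of the receptor NKG2D, was at 46.3, 54.5, 43.8 and 71.3 CPM, and ULBP3, another such ligand, at 14.9, 15.97, 16.7 and 27.7 CPM. SETDB1 knockdown was highest for both, the reverse of TAP1. RAET1E, also a ligand of NKG2D, was at 9.12, 16.8, 13.8 and 16.1 CPM, lowest in Control. In the class II list 8 of 14 genes were at or under the floor of 12 counts in all 4 libraries, and the regulator CIITA was at 1.61, 2.54, 1.47 and 1.15 CPM.

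Among genes that set class I turnover or act beside it (13 tested), 7 had a log2 fold change above 0 in ATF7IP knockdown and 10 in SETDB1 knockdown. The shares of all genes above 0 were 52.0% and 49.5%. CD274, which encodes the checkpoint ligand PD-L1, was at 2.40, 3.06, 3.00 and 4.99 CPM, highest in SETDB1 knockdown. Of the 20 tested MHC region neighbours, 14 had a log2 fold change above 0 in ATF7IP knockdown and 7 in SETDB1 knockdown, beside the same shares of all genes. TUBB, a tubulin gene of that region, was at 2142, 2645, 2003 and 2086 CPM, again highest in hairpin 1, and ATF6B at 24.7, 21.1, 13.8 and 11.9 CPM did not have that order.

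Likeness was measured as the Euclidean distance between the 3 log2 CPM differences from Control, over 11047 genes with a mean of at least 5 CPM. Nearest to the median profile of the 9 genes were HIGD2A, HERC2P9, MRPL4, SHFL and ANKRD13B, at distances from 0.029 to 0.042. That profile takes the median of the 9 genes in each knockdown library (0.39, −0.15 and −0.17), so it need not be the profile of any 1 of them. HLA-B stood at 1.04, −0.05 and −0.17, and PSMB8 at 0.39, −0.23 and −0.41. Of the 11047 genes, 250 lay within 0.2 of the median profile. HIGD2A, a mitochondrial assembly factor, was at 54.6, 70.9, 49.8 and 49.4 CPM. HLA-F had the longest profile, and TBX1, KRT81, the read-through locus ATP6V1G2-DDX39B, PIMREG and IFITM3 were nearest to it, at distances from 0.27 to 0.44. IFITM3, an interferon-induced membrane protein that limits virus entry, was at 290, 590, 275 and 284 CPM, close in shape to HLA-B. These are descriptions over 4 libraries, in which all 3 differences share the Control library.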

How the data were processed

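The authors deposited an estimated count per gene symbol for each of 4 libraries, made with steps that are not fully stated: hg38 and the tools StringTie 2.2.1, HISAT2 2.2.1 and DESeq2 1.34.0 are listed without role or order, per the submitters' processing notes. Annotation and counting procedure are not given in the sources used here. Values were whole numbers that piled up at 4 and 8, so 4 counts per fragment were assumed, and the floor of 12 counts (3 fragments, 0.163 to 0.171 CPM) and the counting intervals rest on that. Intervals are exact 95% binomial intervals of the ratio and, like the floor, cover counting error only. Positions and overlaps came from RefSeq, lengths from GENCODE 29.

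Genes were tested with edgeR 4.0.16 (R 4.3.3), quasi-likelihood, legacy and robust, with TMM factors of 0.980 to 1.04, filterByExpr with a minimum count of 10, and Benjamini-Hochberg adjustment over 16900 genes. The 4 libraries were fitted in 3 groups, which leaves 1 residual degree of freedom, from the pair of ATF7IP hairpins, moderated with a median of 8.09 prior degrees, and the single libraries are taken to vary as that pair does. That pair carries different hairpins, so the spread behind the p-values includes any difference between hairpins. Nothing says how the libraries were cultured or made, so hairpin, culture and technical spread within it cannot be told apart. Alternatives were DESeq2 1.42.0, limma 3.58.1 (trend), other size factors, no filter, counts divided by 4, and libraries left out. Scripts were tested on simulated data.

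The 9 genes and the lists were chosen with earlier results of these data known. Named besides them were, per list, up to 4 genes of highest mean CPM and up to 3 of largest difference from Control among those with a mean of at least 1 CPM, any called gene, and the 5 genes nearest to each of 2 profiles; examples were taken from these, some genes the rule took are not reported here, and HLA-F-AS1, PSMB8-AS1 and the marker genes were named as overlaps and checks.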

Additional observations from a re-analysis of the deposited data

How the results depend on the processing

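The count of class I pathway genes called was 0 in each of the 3 comparisons under every alternative run, with a lowest adjusted p among the 9 of 0.726 for ATF7IP knockdown and 1 for SETDB1 knockdown, each against Control, and 0.480 between the knockdowns. With all ATF7IP libraries kept, 1 log2 fold change of the 9 genes changed sign, that of HLA-E in ATF7IP knockdown, from −0.03 to 0.0043 with upper-quartile factors. Leaving out a hairpin changed more signs. In ATF7IP knockdown against Control, HLA-B went from 0.59 to −0.05, HLA-F from 0.76 to −0.20 and PSMB8 from 0.11 to −0.23 without hairpin 1, and HLA-E went from −0.03 to 0.20 and PSMB9 from −0.09 to 0.17 without hairpin 2. Between the knockdowns, HLA-F went from −0.48 to 0.47 without hairpin 1 and HLA-E from 0.17 to −0.06 without hairpin 2. The count of all genes called depended on the tool. For ATF7IP knockdown against Control, 13 became 3 with DESeq2 size factors in edgeR, 160 with DESeq2, 0 with limma-trend (1286 at an unadjusted p under 0.05), 1 without a filter on low counts, 83 with counts divided by 4, and 34 without the SETDB1 knockdown library. For SETDB1 knockdown against Control, 12 became 7 with DESeq2 size factors, 48 with DESeq2, and 0 with limma-trend (694 at an unadjusted p under 0.05) and without a filter (787). For SETDB1 against ATF7IP knockdown, 28 became 11, 173, 0 (1405 at an unadjusted p under 0.05) and 8 in the same order of DESeq2 size factors, DESeq2, limma-trend and no filter, and 89 with counts divided by 4. The cause was not tested. Against Control, ATF7IP in its own knockdown passed in 3 of 8 settings and SETDB1 in 2 of 7, and between the knockdowns they passed in 7 of 8 and 5 of 8. Leaving out 1 ATF7IP hairpin left no residual degree of freedom, so it gave values with no test, and no comparison with Control exists without Control. No paired analysis was possible because only ATF7IP knockdown has numbered replicates. HLA-F and PSMB9 have the fewest counts of the 9 genes and the widest counting intervals. The log2 difference of SETDB1 knockdown from Control in summed heavy chains was −0.20 with all 10 genes and pseudogenes.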
